A study of Mus musculus with 20 samples.

Results

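The 35 genes described here act in the repair of DNA strand breaks, damaged bases and mismatches. They were chosen by name from 6 pathways plus *Mgmt*, a direct reversal gene, and a probe was assigned to a gene through the transcript accession given for the spot. Of the 35 genes, 34 had a probe and all 34 passed the presence filter, out of 12986 genes with a present probe on the arrays. *Mgmt* was not analysed here. The present probe of highest mean intensity stood for each gene.

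Each of the 20 livers came from a male Muta™Mouse (transgenic strain 40.6, 25 weeks of age), a line that carries a *lacZ* reporter for mutation assays. By gavage over 28 days, 5 mice received olive oil alone as controls, and 5 mice each received benzo(a)pyrene (BaP) in olive oil at 25, 50 or 75 mg/kg/day. BaP is a polycyclic aromatic hydrocarbon whose metabolites bind to DNA. The livers were taken 3 days after the last dose, so that a single late time point was measured. Each liver RNA, labeled with Cyanine 5, was hybridized to 1 array against a Cyanine 3-labeled reference RNA pooled from 11 mouse cell lines. The same orientation was used on all arrays, without a dye swap. Values are log2 ratios of liver over reference after background correction and loess normalization. Bulk liver RNA was measured, in which fewer cells of a type and less RNA per cell cannot be told apart.

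Double-strand breaks are repaired either by homologous recombination, which copies an intact sister chromatid and is used mainly by dividing cells, or by end joining, which ligates the broken ends and also serves non-dividing cells such as most hepatocytes. The Fanconi anemia proteins act on DNA crosslinks. In base excision repair a glycosylase removes a damaged base, an endonuclease cuts the strand, and a polymerase and ligase fill and seal the gap. Mismatch repair corrects replication errors. The bulky adducts that BaP forms are removed mainly by nucleotide excision repair, a separate pathway whose genes are not among those described here.

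The 5 measured hepatocyte markers had a mean log2 ratio between 4.35 and 5.69 on the control arrays (median 4.73), with medians of 5.18, 5.18 and 5.40 at the 3 doses. The mean of the 3 tested lung epithelium markers lay between -0.10 and 0.33 on all arrays. *Sftpc* and *Sftpb* did not pass the presence filter, although *Sftpb* was above the limit on 12 of 20 arrays. Of the 3 tested, *Sftpa1* was well above background on 16 arrays, *Scgb1a1* on 5 and *Ager* on 1. For probes this dim a ratio near zero does not show that lung transcripts were absent. This check was made because the sample labels name both liver and lungs. In the liver channel 51.9 to 67.5% of spots per array were well above background, with control replicate 4 the highest. The arrays lay on 6 slides. Slides 1, 2 and 3 held 1 array of each group, while position 2 of a slide held every 25 mg/kg/day array and position 4 every 75 mg/kg/day array. Control replicate 2 also lay at position 2 and 50 mg/kg/day replicate 13 at position 4, and the other controls lay at position 1. No array at 50 or 75 mg/kg/day shared a position with a control, so position and dose cannot be told apart there, and at 25 mg/kg/day 1 control shared the position.

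No repair gene was called at any dose. Calls required an adjusted p (Benjamini-Hochberg, over all 27346 present probes) under 0.05 together with a fold change over 1.5, both thresholds that the study used in its results. By this rule 0 of the 34 genes were called at 25 mg/kg/day, where 0% of all present probes were called. At 50 mg/kg/day 0 of 34 were called, beside 0% of all probes. At 75 mg/kg/day 0 of 34 were called, beside 0.135% of all probes (37 probes). The lowest adjusted p among the genes from limma was 0.636 at 25, 0.747 at 50 and 0.348 at 75 mg/kg/day. With dose as a number, 0 of 34 genes had a linear trend at an adjusted p under 0.05 from limma, where 0.157% of all probes had one, and the lowest adjusted p among the genes was 0.54.

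At an unadjusted p under 0.05 from limma, 1 gene (*Xrcc5*) was higher and 0 were lower at 25 mg/kg/day, beside 4.18% higher and 3.62% lower among all probes. At 50 mg/kg/day 0 genes passed in either direction, beside 3.75 and 2.94% of all probes. At 75 mg/kg/day 1 gene was higher (*Xrcc5*) and 1 lower (*Xrcc4*), beside 6.52 and 4.69%. In the trend 0 genes were higher and 1 was lower (*Xrcc4*), beside 5.07 and 3.51%. None of these counts, at most 1 of 34 genes in a direction, exceeded the share of all probes.

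With the loess-normalized ratios the estimates were small and their intervals narrow. Over the 34 genes the log2 fold change ran from -0.28 to 0.28 at 25, from -0.31 to 0.22 at 50 and from -0.31 to 0.26 at 75 mg/kg/day, with standard errors between 0.08 and 0.21. The 95% interval lay wholly within a 1.5-fold change in either direction for 32, 31 and 33 of the 34 genes at the 3 doses, and within a 2-fold change for all 34 at each dose. The exceptions to the 1.5-fold limit were *Exo1* and *Lig4* at 25 mg/kg/day, *Brca2*, *Ung* and *Mpg* at 50 mg/kg/day and *Ung* at 75 mg/kg/day. The widest interval was that of *Ung* at 50 mg/kg/day, from -0.73 to 0.12. These intervals are per gene and are not adjusted for the number of genes. They do not cover the choice of processing, and other settings put some estimates outside them. *Xrcc5* reached 0.55 at 25 mg/kg/day (interval 0.03 to 0.53) and *Fancd2* -0.56 at 75 mg/kg/day (interval -0.53 to 0.04). The counts include *Fancd2* and *Fancg*, well above background on 2 and 14 of 20 arrays.

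**Figure D1:**
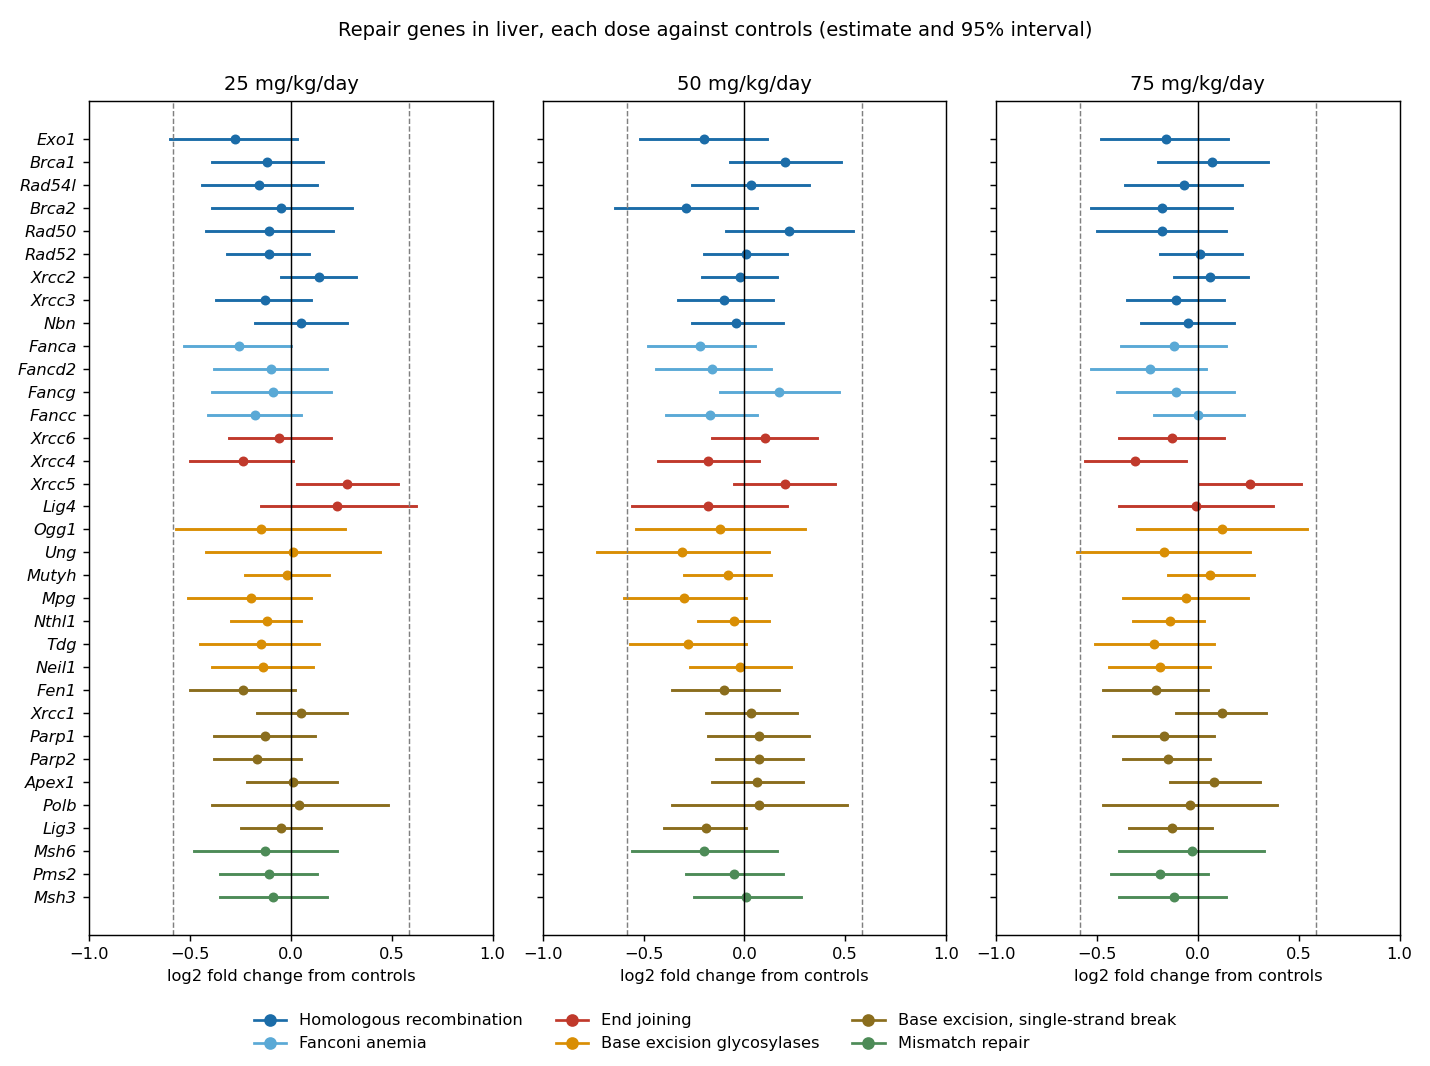
Log2 fold change from controls (horizontal axis) of the 34 repair genes (rows, colored by pathway) at the 3 doses of BaP, with points for the limma estimate and bars for its 95% interval. The dashed lines mark a 1.5-fold change. No point passes them, and all bars lie within a 2-fold change.

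The median log2 fold change of the 34 genes was -0.11, -0.05 and -0.12 at the 3 doses, beside a median of 0 over all present probes. The estimate was below zero for 26, 21 and 25 of the 34 genes, that is 76.5, 61.8 and 73.5% of them, beside 49.7, 50.8 and 49.4% of all probes. The SD of the genes' median between arrays of a group was 0.07. The 3 doses share the same control arrays, so their values are not independent. When each array was centred on its median in place of loess, the median over the genes was 0.08, -0.18 and 0.06 while that over all probes moved to 0.11, -0.08 and 0.10. The sign of the genes' median at 25 and 75 mg/kg/day thus flipped with the scaling. It stayed below the median of all probes, at these doses by less than the SD of 0.07. With this centring 7, 30 and 8 of the 34 genes were below zero. In the liver channel alone the median was -0.04, 0 and -0.02, beside 0.01, 0 and 0 over all probes. There 21, 17 and 19 of the 34 genes were below zero.

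Most estimates of the hepatocyte and endothelial cell markers lay above zero, beside this median of the repair genes. All 5 hepatocyte markers had estimates above zero at each dose, with a median log2 fold change of 0.33, 0.27 and 0.44, and 3 of them passed an unadjusted p under 0.05 at 75 mg/kg/day from limma, with 0 called. In the liver channel alone 2 of the 5 were above zero at that dose (median -0.05), and the median of the repair genes there was -0.02. With slide as a block the hepatocyte medians were 0.15, 0.27 and 0.26. The mean ratio of these markers on an exposed array ran from 4.87 to 5.63, inside the control range of 4.35 to 5.69. Of 6 endothelial markers 5, 6 and 6 were above zero, with medians of 0.36, 0.29 and 0.44, and their mean ratio on an array ran from 2.54 to 3.47 in controls and from 3.47 to 4.16 at the highest dose. *Lyve1*, a hyaluronan receptor of sinusoidal endothelium, was the 1 endothelial marker called (log2 fold change 2.23 at 75 mg/kg/day, with an adjusted p of 0.0189 from limma). No endothelial marker was called without control replicate 2 or without replicate 17, 18 or 20 of the highest dose, nor with the scanner's processed signals. In a fit of control and highest dose only, 0 endothelial and 0 Kupffer cell markers were called. Of 5 Kupffer cell markers 4, 5 and 5 were above zero, with medians of 0.26, 0.21 and 0.12, and the macrophage scavenger receptor *Marco* was called at 75 mg/kg/day (log2 fold change 2.19, adjusted p 0.00148 by limma). At that dose 2 of the 5 were above zero in the liver channel alone (median -0.04), and 2 of 5 with slide as a block (median 0). Other marker lists went both ways at 75 mg/kg/day. Their medians were 0.39 for neutrophils, 0.19 for stellate cells and fibroblasts, 0.02 for B cells, -0.17 for bile duct cells and -0.22 for T cells. The part of these markers in the median of the repair genes was not tested.

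The control level of the genes differed widely against the reference. The reference RNA comes from cultured cell lines, which divide, and the log2 ratio compares a gene in liver with the same gene in that RNA, not 1 gene with another. In the controls 29 of the 34 genes had a mean ratio below zero and 5 above it. On all 20 arrays, 23 genes were below the reference and 2 (*Lig3* and *Lig4*) were above it. The lowest were *Exo1*, an exonuclease that resects DNA ends and acts in mismatch repair, at -3.64 ± 0.23 (SD, n = 5), and *Brca1*, which directs breaks into recombination, at -2.99 ± 0.17. These ratios correspond to levels 12.5-fold and 7.94-fold lower in liver. The highest was *Lig3*, the ligase that seals single-strand breaks, at 0.71 ± 0.11. Loess sets the centre of each array and the dyes were not swapped, so these ratios are a description and were not tested.

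**Figure D2:**
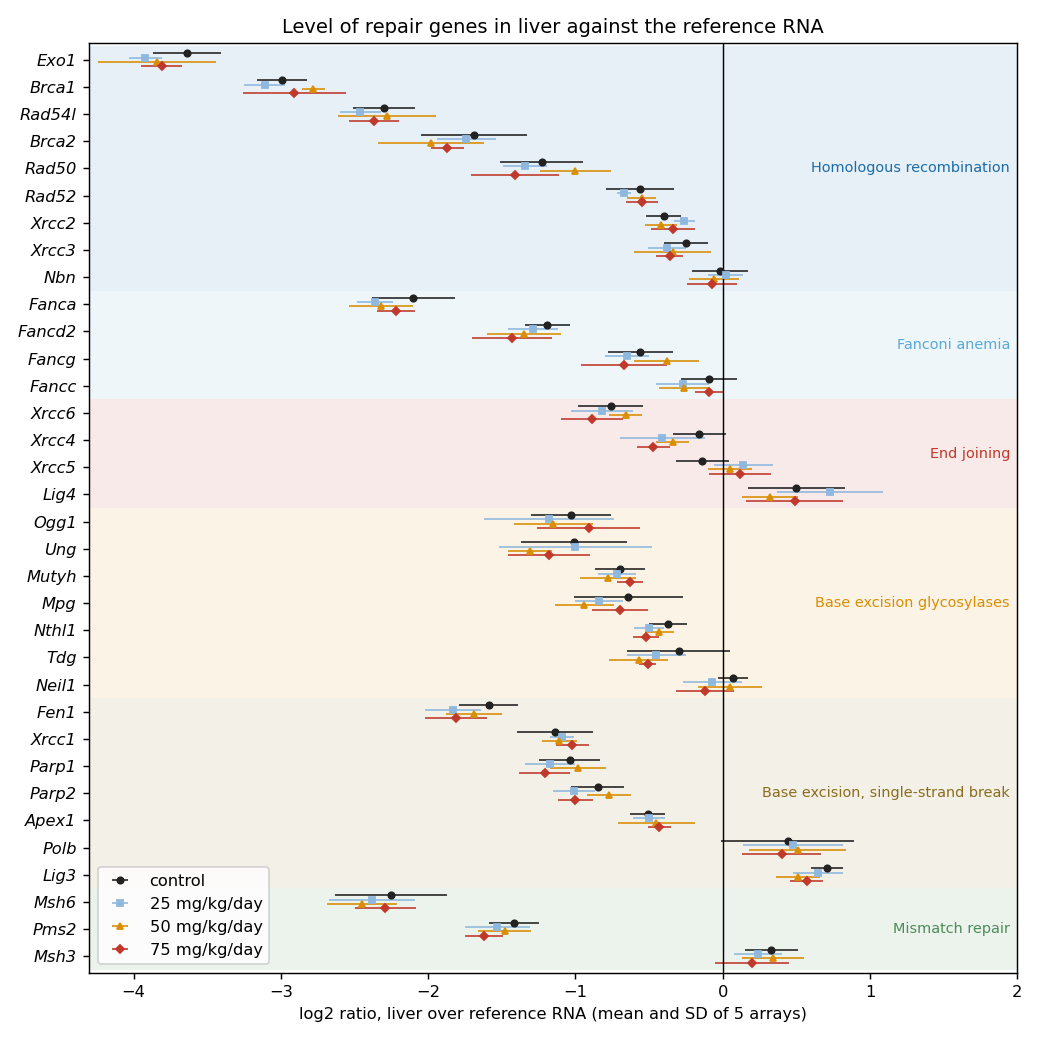
Log2 ratio of liver over reference RNA (horizontal axis) of the 34 genes by pathway, as the mean and SD of 5 arrays in each of the 4 groups. *Exo1*, *Brca1* and *Rad54l* lie farthest to the left, *Lig3* and *Lig4* lie to the right of zero, and the 4 groups of each gene lie close together.

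By pathway the median control ratio was -1.42 for mismatch repair (3 genes), -1.23 for homologous recombination (9 genes), -0.88 for Fanconi anemia (4 genes), -0.85 for the base excision and single-strand break genes that follow the glycosylase (7 genes), -0.64 for the glycosylases (7 genes) and -0.15 for end joining (4 genes). Beside these, 11 tested proliferation markers had a mean ratio between -3.02 and -2.63 on the control arrays, between -2.98 and -2.81 at 25, between -2.96 and -2.59 at 50 and between -2.86 and -2.58 at 75 mg/kg/day. The groups overlapped in these means. The part of cell division in the levels of the repair genes was not tested.

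Among the end-joining genes, *Xrcc4* and *Xrcc5* were the genes of smallest p at the highest dose. *Xrcc5* encodes Ku80, which with Ku70 (*Xrcc6*) binds a broken end, and *Xrcc4* encodes the scaffold that holds DNA ligase IV (*Lig4*) at the break. The sequences before their start sites are shown because these 2 genes had the smallest p at the highest dose, although neither was called. Each line gives the 200 bases before the RefSeq transcription start, on the strand of the gene, in build GRCm38.p6, with *Xrcc4* at chr13:90089609-90089808 (minus strand) and *Xrcc5* at chr1:72307221-72307420 (plus strand). Capitals mark matches to any of the 3 motifs named after them.

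Xrcc4: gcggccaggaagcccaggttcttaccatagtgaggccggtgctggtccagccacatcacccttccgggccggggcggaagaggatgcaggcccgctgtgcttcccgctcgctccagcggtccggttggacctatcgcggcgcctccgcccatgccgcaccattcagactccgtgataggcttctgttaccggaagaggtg
Xrcc5: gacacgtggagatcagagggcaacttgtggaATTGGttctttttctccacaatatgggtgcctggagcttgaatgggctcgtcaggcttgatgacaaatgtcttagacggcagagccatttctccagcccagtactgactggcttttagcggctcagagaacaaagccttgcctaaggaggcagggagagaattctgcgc

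The motifs were searched on both strands in the 250 bases before each start. They were the E2F letters (TTTCCCGC, TTTCGCGC, TTTGCCGC or TTTGGCGC), the cell cycle homology letters TTTGAA and the CCAAT box CCAAT. The *Xrcc5* stretch above holds 1 match, a CCAAT box on the opposite strand, and the *Xrcc4* stretch holds 0. No matches overlapped there. Of the 34 genes, 28 matched an entry of the promoter table. The E2F letters were found in 5 of these 28 genes, beside 2.16% of 27025 genes, and in 1 of the 11 genes whose control ratio was at least 1 below the reference and 4 of the 17 others. TTTGAA was found in 1 of 28, beside 18.3% of genes, and CCAAT in 15 of 28, beside 37.5%. These shares cover all genes of the promoter table, with or without a present probe, whereas all 28 genes had one, so the sets are unlike. A match is a description of letters, and nothing about binding was measured.

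*Xrcc4* was at -0.29, 0.04, -0.30, 0.03 and -0.28 in control replicates 1 to 5. At 75 mg/kg/day (replicates 16 to 20) it was at -0.53, -0.61, -0.35, -0.37 and -0.47. All 5 arrays of the highest dose thus lay below all 5 controls, although the lowest control (-0.30) and the highest exposed array (-0.35) were close. Among all present probes 0.581% lay wholly below the controls at this dose and 0.936% wholly above, and of the 34 genes 1 (*Xrcc4*) lay wholly below and 0 above. In replicates 6 to 10 (25 mg/kg/day) *Xrcc4* was at -0.06, -0.78, -0.17, -0.58 and -0.43, and at 50 mg/kg/day (replicates 11 to 15) at -0.38, -0.48, -0.25, -0.22 and -0.36. At both of these doses 3 of 5 exposed arrays lay below all controls. No other gene of the 34 separated the groups. At 25 mg/kg/day 0 of 34 lay wholly above or below the controls, beside 0.559 and 0.655% of all probes. At 50 mg/kg/day it was 0 of 34, beside 0.516 and 0.3%.

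The log2 fold change of *Xrcc4* at 75 mg/kg/day was -0.31 (SE 0.12, 95% interval -0.56 to -0.06), a level 0.808 times that of controls. Its p from limma was 0.0193 unadjusted and 0.348 adjusted. It was -0.24 at 25 (adjusted p = 0.646) and -0.18 at 50 mg/kg/day (adjusted p = 0.81). A second present probe of the gene, on the same arrays and dimmer, gave -0.19, -0.19 and -0.43, the last with an adjusted p of 0.263 from limma (unadjusted p = 0.00576). The trend was -0.09 per step of 25 mg/kg/day (adjusted p = 0.54 from limma). Within slides 1, 2 and 3, the 75 mg/kg/day array differed from the control by -0.64, -0.07 and -0.24, and with slide as a block the log2 fold change was -0.32 (adjusted p = 0.348 from limma). The value was -0.09 in the liver channel alone and -0.11 with median centring, on a scale where the median of all probes was 0.10. Without control replicate 2 or control replicate 4, the 2 highest controls, it was -0.26 in each case. The difference in *Xrcc4* did not pass the threshold over all probes.

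*Xrcc5* was at 0.00, -0.18, -0.28, 0.07 and -0.33 in control replicates 1 to 5 and at 0.11, -0.08, 0.32, -0.01 and 0.38 at 25 mg/kg/day (replicates 6 to 10). At 50 mg/kg/day (replicates 11 to 15) it was at 0.11, -0.20, 0.05, 0.15 and 0.15, and at 75 mg/kg/day (replicates 16 to 20) at 0.20, 0.24, 0.36, -0.09 and -0.12. At each dose 3 of 5 exposed arrays lay above all controls and the other 2 fell among them. The log2 fold change was 0.28 at 25 (95% interval 0.03 to 0.53, adjusted p = 0.636), 0.20 at 50 (adjusted p = 0.781) and 0.26 at 75 mg/kg/day (95% interval 0.01 to 0.51, adjusted p = 0.433), all from limma. Within slides 1, 2 and 3, the 25 mg/kg/day array differed from the control by -0.08, 0.65 and 0.37. The 50 mg/kg/day array differed by 0.07, 0.49 and 0.11 and the 75 mg/kg/day array by 0.17, 0.69 and 0.19. With slide as a block the estimates at 25 and 75 mg/kg/day were 0.33 and 0.31 (adjusted p = 0.391 and 0.274 from limma). With median centring they were 0.55 and 0.48, on a scale where the median of all probes was 0.11 and 0.10, while the estimate at 50 mg/kg/day was 0.04 (unadjusted p = 0.861 from limma), where that of all probes was -0.08. Control replicate 2, at the slide position of the 25 mg/kg/day arrays, lay below all 5 of them (-0.18). That control lay on slide 6, which held no 25 mg/kg/day array, so slide and position cannot be told apart there. The part of position was not tested.

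**Figure D3:**
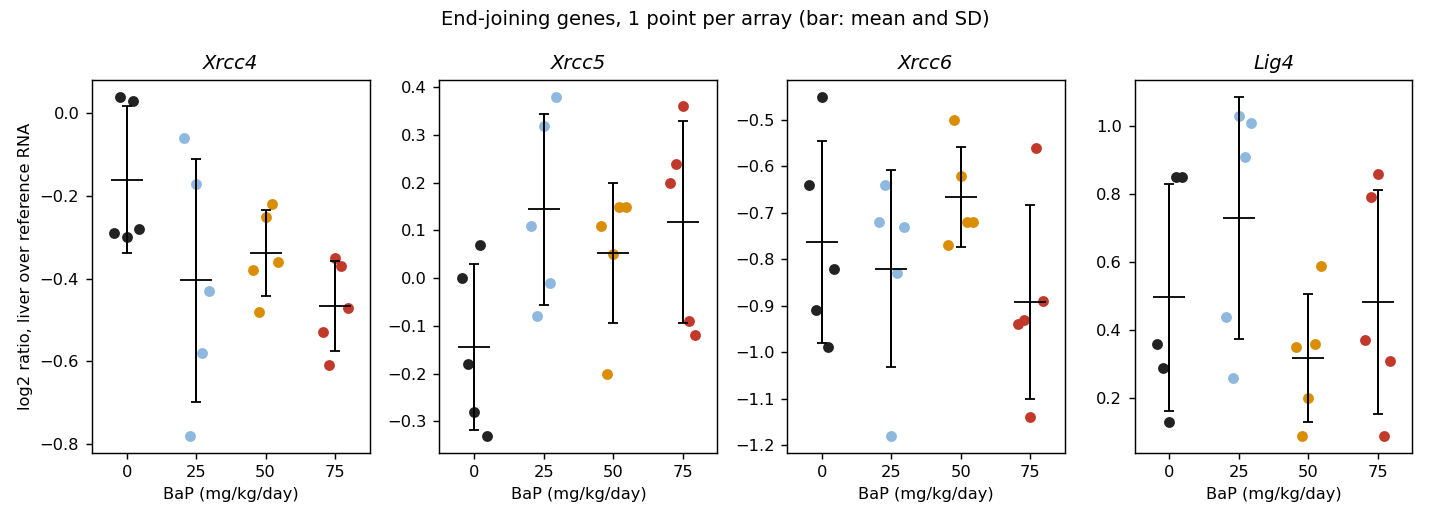
Log2 ratio of liver over reference RNA of the 4 end-joining genes by dose of BaP, with 1 point per array and a bar for the mean and SD of 5 arrays; each panel has its own vertical scale. For *Xrcc4* the 75 mg/kg/day arrays lie between -0.61 and -0.35, below the controls at -0.30 to 0.04, and in the other panels the groups overlap.

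**Figure D4:**
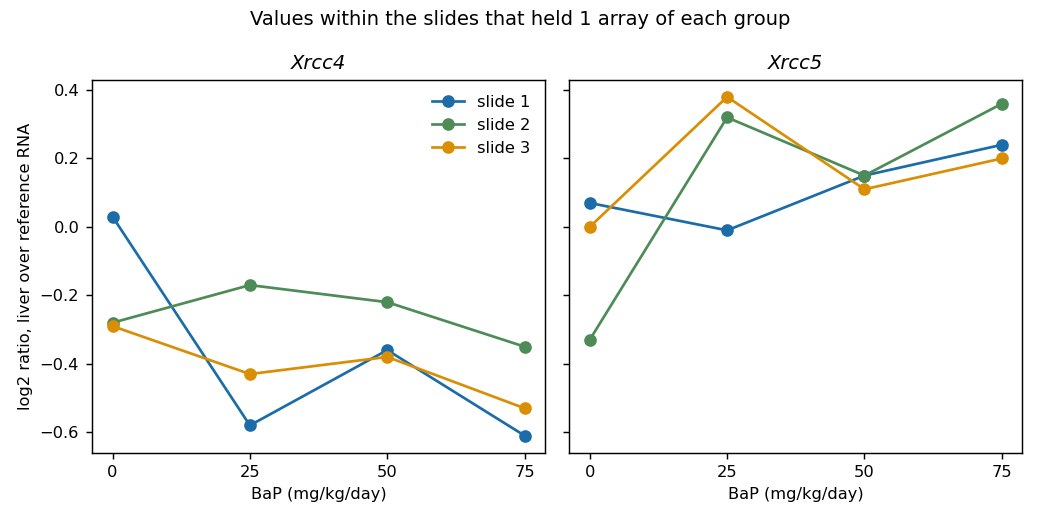
Log2 ratio of *Xrcc4* and *Xrcc5* against dose within slides 1, 2 and 3, which held 1 array of each group, with a line per slide. The 75 mg/kg/day array lies below the control of its slide for *Xrcc4* (by 0.07 to 0.64) and above it for *Xrcc5* (by 0.17 to 0.69) on each of the 3 slides. At 25 mg/kg/day the signs are mixed, with *Xrcc4* above its control on slide 2 (0.11) and *Xrcc5* below it on slide 1 (-0.08).

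The remaining end-joining genes gave *Xrcc6* -0.06, 0.10 and -0.13 and *Lig4* 0.23, -0.18 and -0.01 as the log2 fold change at 25, 50 and 75 mg/kg/day. A dimmer *Lig4* probe gave 0.05, 0.08 and 0.08 at these doses. By the standing probes *Xrcc6* lay between -0.99 and -0.45 and *Lig4* between 0.13 and 0.85 on the control arrays. The 95% interval of both genes included zero at each dose. Of 8 other end-joining genes, all tested, 0 were called at any dose. The 2 further repair genes of smallest p at 75 mg/kg/day were in this pathway. *Nhej1* (XLF, a partner of XRCC4) was 0.42 higher on the log2 scale (SE 0.12), with 4 of 5 exposed arrays above every control and an adjusted p of 0.221 from limma. *Dclre1c* (Artemis, the end-trimming nuclease) was 0.56 higher (SE 0.20, adjusted p = 0.319 from limma), also with 4 of 5 above every control.

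The 9 genes of homologous recombination had a median log2 fold change of -0.11, -0.02 and -0.07 at the 3 doses, and 7, 5 and 6 of them were below zero. At 75 mg/kg/day the estimates ran from -0.18 (*Brca2*, which acts in strand exchange, and *Rad50*) to 0.07 (*Brca1*). *Rad50* and *Nbn* belong to the complex that recognises broken ends, and *Rad50* was at -0.11, 0.22 and -0.18 while *Nbn* was at 0.05, -0.04 and -0.05. *Exo1* was at -0.28, -0.20 and -0.16. *Rad52* and *Rad54l*, which act in strand pairing, had estimates within 0.16 of zero at each dose, as did *Xrcc2* and *Xrcc3*, which act in the same pathway. Of 21 other recombination genes 19 were tested and 0 were called.

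The Fanconi anemia genes are a group in which depth limits the values. *Fancd2*, the protein ubiquitinated at a crosslink, stood well above background on 1 control array, on 1 array at 25 mg/kg/day and on 0 at each higher dose, so no change is read from its estimates of -0.10, -0.16 and -0.24. *Fancg* was well above background on 14 of 20 arrays and was at -0.09, 0.17 and -0.11, and *Fancc* was at -0.18, -0.17 and 0. *Fanca*, of the core complex, had one of the 2 smallest p-values at 25 mg/kg/day. It was at -2.46, -2.35, -1.97, -1.86 and -1.87 in control replicates 1 to 5 and at -2.42, -2.18, -2.39, -2.32 and -2.50 at 25 mg/kg/day. It was at -2.50, -2.11, -2.36, -2.54 and -2.08 in the middle dose group and, in the highest, at -2.23, -2.20, -2.43, -2.12 and -2.12. Control replicates 1 and 2 fell among the exposed arrays, and the log2 fold changes were -0.26, -0.22 and -0.12 (adjusted p = 0.641, 0.781 and 0.765 from limma). Of 9 other genes of the pathway 7 were tested and 0 were called.

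Of the 7 glycosylases, 6, 7 and 5 were below zero at the 3 doses, with medians of -0.14, -0.12 and -0.14. *Mpg*, which removes alkylated bases, and *Tdg*, which removes thymine from mismatches, had the 2 smallest p-values at 50 mg/kg/day. *Mpg* was at -1.16, -0.64, -0.74, -0.16 and -0.50 in control replicates 1 to 5 and at -1.08, -0.66, -0.86, -1.16 and -0.93 at 50 mg/kg/day (replicates 11 to 15). It was at -0.69, -0.67, -0.91, -0.93 and -1.02 at 25 mg/kg/day and at -0.85, -0.81, -0.77, -0.68 and -0.39 at 75 mg/kg/day. At each dose no exposed array of *Mpg* lay beyond all controls, and the log2 fold changes were -0.20, -0.30 and -0.06 (adjusted p = 0.738, 0.747 and 0.918 from limma).

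*Tdg* was at -0.43, -0.80, -0.31, -0.02 and 0.07 in control replicates 1 to 5 and at -0.73, -0.29, -0.78, -0.62 and -0.45 at 50 mg/kg/day. It was at -0.65, -0.35, -0.22, -0.37 and -0.67 at 25 mg/kg/day and at -0.56, -0.51, -0.41, -0.51 and -0.56 at 75 mg/kg/day, a narrow range inside that of the controls. Its log2 fold changes were -0.15, -0.28 and -0.22 (adjusted p = 0.795, 0.752 and 0.582 from limma), and a dimmer probe gave 0.13, -0.03 and 0.05. *Ogg1*, which removes oxidized guanine, was at -0.15, -0.12 and 0.12. *Mutyh*, which removes adenine paired with oxidized guanine, was at -0.02, -0.08 and 0.06. *Ung*, which removes uracil, was at 0.01, -0.31 and -0.17, with the largest spread between arrays of a group among the 34 genes (a pooled SD of 0.35, as for *Polb*). *Nthl1* and *Neil1*, which remove oxidized pyrimidines, were at -0.14 and -0.19 at 75 mg/kg/day. Of 4 other glycosylase genes 3 were tested and 0 were called.

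The genes that act after the glycosylase were close to their control levels. At 75 mg/kg/day the log2 fold change was 0.08 for *Apex1* (the main abasic site endonuclease), -0.04 for *Polb* (the gap-filling polymerase), -0.21 for *Fen1* (the flap nuclease) and -0.13 for *Lig3*. The strand break sensors *Parp1* and *Parp2* were at -0.17 and -0.15, and the scaffold *Xrcc1* was at 0.12. A slightly dimmer *Parp2* probe gave -0.25, 0.09 and -0.24 at 25, 50 and 75 mg/kg/day. Its p from limma at 25 mg/kg/day was 0.0456 unadjusted and 0.64 adjusted. By the standing probes the 95% intervals of all 7 genes lay within a 1.5-fold change at each dose. Of 6 other genes of this step 5 were tested and 0 were called.

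In mismatch repair, *Msh6* (a subunit that reads single mismatches) was at -0.13, -0.20 and -0.03 and *Pms2* (the nicking subunit) at -0.11, -0.05 and -0.19. *Msh3*, which reads loops, is the 1 gene whose probes disagreed in sign at an unadjusted p under 0.05. By its standing probe it was at 0.48, 0.42, 0.03, 0.34 and 0.37 in control replicates 1 to 5 and at 0.40, 0.33, 0.41, -0.08 and -0.05 at 75 mg/kg/day. It was at 0.19, 0.02, 0.44, 0.20 and 0.35 at 25 mg/kg/day and at 0.42, 0.03, 0.36, 0.61 and 0.26 at 50 mg/kg/day, so that the groups overlapped at each dose. The log2 fold changes were -0.09, 0.01 and -0.12 (adjusted p = 0.889, 0.991 and 0.764 from limma). A probe well above background on 11 of 20 arrays gave 0.33, 0.17 and 0.30. Its p from limma at the lowest and highest dose was 0.00922 and 0.0186 unadjusted and 0.636 and 0.343 adjusted. Another probe gave -0.02, 0.18 and 0.23. The sign for *Msh3* at 75 mg/kg/day therefore depends on the probe. Of 6 other mismatch repair genes 5 were tested and 0 were called, and of 2 other direct reversal genes both were tested and 0 were called.

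Over all 56 further repair genes listed beside these pathways, 49 were tested. At an unadjusted p under 0.05 from limma, 0 were higher and 5 lower at 25, 1 higher and 4 lower at 50 and 2 higher and 2 lower at 75 mg/kg/day, and 0 were called. The lower genes made up 10.2, 8.16 and 4.08% of the 49 at the 3 doses, beside 3.62, 2.94 and 4.69% of all probes. The higher genes made up 0, 2.04 and 4.08%, beside 4.18, 3.75 and 6.52%. At 25 and 50 mg/kg/day the share of lower genes thus lay above that of all probes, a difference that was not tested. The median log2 fold change of the 49 genes was -0.08, -0.06 and -0.05. At 25 mg/kg/day 1 (*Bard1*) lay wholly above the controls and 2 (*Rad54b* and *Alkbh3*) wholly below, beside 0.559 and 0.655% of all probes. *Bard1* was well above background on 2 of 20 arrays. At 50 mg/kg/day 0 of 49 did so, beside 0.516 and 0.3%, and at 75 mg/kg/day 0 of 49, beside 0.936 and 0.581%. The lowest estimates, picked after the values were seen, were those of the recombination gene *Rad54b* at 25 mg/kg/day (-0.44, with an adjusted p of 0.636 from limma) and the mismatch repair gene *Pms1* at 50 mg/kg/day (-0.53, with an adjusted p of 0.697).

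The median SD between arrays of a group was 0.20 over the 34 genes and 0.22 over all present probes. For 28 of the 34 genes more of the variance lay between slides than between groups, with a median of 38.2% between slides and 18.8% between groups. The same held for 22352 of the 27346 present probes, and 6 slides can take up more variance than 4 groups. For *Xrcc4* these shares were 25.3 and 31.9%, and for *Xrcc5* 38.1 and 30.9%. Because a slide held at most 4 arrays and slides 4, 5 and 6 lacked groups, both shares overlap. With slide as a block 0 genes were called, and the lowest adjusted p from limma was 0.391 at 25, 0.388 at 50 and 0.274 at 75 mg/kg/day. Of the 34 genes 11 had over 1 present probe, with 12 further probes in all, of which 7, 10 and 6 had the sign of the standing probe at the 3 doses.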

How the data were processed

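Median spot and background intensity values on a linear scale were deposited by the authors for 45018 features in 2 channels (Feature Extraction 10.1.1.1 per the file headers), with processed intensities and other columns of software marks. The log2 ratios deposited by the authors were LOWESS normalized. Here the medians were corrected by normexp (offset 50) and normalized by loess, outlier spots were left out, and the spots of each probe were averaged, giving 41174 probes. Per array they correlated at 0.994 to 0.996 with the authors' ratios. Presence followed the study's rule: signal above the trimmed mean (5%) plus 3 trimmed SDs of 153 negative spots in at least 4 of 5 arrays of a group (27346 probes). The authors removed 1 sample without naming it, and all 20 were kept.

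Limma 3.58.1 (R 4.3.3) was fitted to the groups or to dose as a number over the 20 arrays, two-sided. It took the place of the study's MAANOVA and was tested on simulated data. Those data held no slide effect and only changes larger than any estimate of the repair genes. They thus do not show whether changes as small as those estimates would be found. With 1 array per animal, 5 arrays a group limit the precision. The series text gives 24 mg/kg where labels and methods give 25. RefSeq transcript accessions named 23374 of the probes. Figures used Python 3.11.15 and matplotlib 3.10.9. Every array is given for genes called or not overlapping with the controls, the 2 of smallest p at each dose, and genes whose probes disagree. The genes, lists and tests were chosen with earlier results of these data known, and the promoter motifs after the values had been seen. Alternatives were other background, normalization, channel, filter, slide, sample, probe and call settings, and each array left out.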

Additional observations from a re-analysis of the deposited data

Results flagged for a closer look

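Of 136 sets of 5 arrays (34 genes in 4 groups), 4 held an array that stood apart from the other 4 of its group by more than Dixon's limit, where chance alone flags about 1 in 20 groups. *Xrcc3* was at 0.02 in control replicate 3 and between -0.35 and -0.26 in the other controls. *Neil1* was at -0.33 in 50 mg/kg/day replicate 14 and between 0.07 and 0.22 in the others of the group. *Polb* was at -0.07 in 50 mg/kg/day replicate 12 and between 0.55 and 0.72 in the others. *Pms2* was at -1.15 in 25 mg/kg/day replicate 7 and between -1.67 and -1.56 in the others. None of these genes is among those with the smallest p.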

How the results depend on the processing

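The count of repair genes called was 0 at each dose under all alternatives run, including each of the 20 arrays left out, adjusted p alone and adjustment over the 3 doses together. In the dose trend it was also 0 under each alternative run for it, which left out these last 2 and the fit of control and 1 dose group. The lowest adjusted p from limma that any gene reached in these was 0.217 (*Xrcc4* at 75 mg/kg/day with the authors' log ratios). No gene passed a 1.5-fold change in any of them. With an array left out, the median log2 fold change of the genes lay between -0.12 and -0.08 at 25, -0.10 and -0.04 at 50 and -0.14 and -0.06 at 75 mg/kg/day. It moved beyond the spread between arrays with median centring (0.08, -0.18 and 0.06) and, at 75 mg/kg/day, with the liver channel alone (-0.02). The cause was not tested. Over all probes the count called at 75 mg/kg/day ran from 5 (control and highest dose only) to 72 (an array left out), and in the trend from 8 to 95. The unadjusted p of *Xrcc4* at 75 mg/kg/day was under 0.05 in 8 of 10 other settings and with 18 of 20 arrays left out, and that of *Xrcc5* in 7 of 10 and 14 of 20. Only probes well above background on all arrays left 32 genes, without *Fancd2* and *Fancg*. By replicate number, no paired analysis was possible because the labels number the samples 1 to 20 through all groups, and slide served as the block instead. Signal over background had a median of 1.29 to 1.72 on the arrays, which limits the dim probes. One dye orientation, 5 arrays a group and a single time point limit every value.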
